A study of Saccharomyces cerevisiae with 12 samples.

Results

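This account covers 9 genes of budding yeast (Saccharomyces cerevisiae) that make, elongate, desaturate and activate fatty acids. They are ACC1, FAS1, FAS2, ELO1, OLE1, MGA2, SPT23, FAA1 and FAA4. The members were chosen by name, as the probe sets whose annotated gene symbol is on this list. No measured value entered that rule, but the list was drawn up with earlier results of these data known. All 9 were measured, each by a probe set of its own, among the 5448 genes read on Affymetrix yeast arrays that hold 5715 probe sets. Messenger RNA was profiled in 4 strains, with 3 cultures of each strain on 1 array per culture. The bmhhdac strain (KBY3) has the genotype bmh1-170ts bmh2∆ hda1∆ rpd3∆, the hdac strain (CTY-TY44) is hda1∆ rpd3∆, and the bmh strain (YLL1087) is bmh1-170ts bmh2∆. The wild type is W303-1A, a common laboratory strain, and all strains share this background. BMH1 and BMH2 encode the yeast 14-3-3 proteins, which bind phosphorylated partners, and the bmh1-170ts allele is temperature-sensitive. HDA1 and RPD3 encode the catalytic subunits of histone deacetylase complexes. Every culture grew exponentially at 30 °C in YP medium with 5% glucose and was taken at an optical density between 0.7 and 1.3. The labels do not say how far the bmh1-170ts protein works at that temperature, and each mutant is a single strain.

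Fatty acid synthesis begins when acetyl-CoA carboxylase makes malonyl-CoA, which the cytosolic fatty acid synthase uses to build saturated chains. A membrane-bound desaturase then places a double bond in these chains, and in yeast the transcription of its gene responds to how fluid the membrane is, through transcription factors that are held in the endoplasmic reticulum membrane until they are cut. Acyl-CoA synthetases activate fatty acids from the medium or from stored lipid, so that they can enter lipids or be broken down. In yeast the synthesis genes are also known as targets of the inositol-regulated activators Ino2 and Ino4.

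The values are log2 signal intensities, and a difference of 1 is a 2-fold difference in signal. The signals of the deleted genes fitted the genotype of every array. BMH2 read 3.77 to 3.82 in bmhhdac and 3.90 to 4.13 in bmh arrays, against 11.47 to 11.81 in wild-type arrays, while HDA1 and RPD3 read 3.68 to 4.10 in bmhhdac and hdac arrays. The BMH1 probe set read 12.65 to 12.98 on all arrays, so it does not check the point allele. The lowest mean of a fatty acid gene in any strain was 8.62, far above the highest background value of 4.13. Wild-type array 1 stood apart from the other wild-type arrays: 61 genes differed there by 2-fold or more from the mean of the other 2 arrays of the strain, against 5 and 6 genes on wild-type arrays 2 and 3 and at most 1 gene on any mutant array. With 3 arrays per strain, the number of arrays limits the precision. Several differences from the wild type are therefore given with and without wild-type array 1. The hdac arrays also carried transcripts of the alpha mating type, with a mean over the 5 measured of 6 alpha-cell markers of 10.09 to 10.12, against 5.20 to 5.34 in the wild type. The mean over 7 a-cell markers was 9.03 to 9.06 in bmhhdac, 5.88 to 5.99 in hdac and 10.58 to 10.65 in bmh arrays, against 10.85 to 10.91 in the wild type. In the bmhhdac, bmh and wild-type strains the means of the alpha-cell markers MF(ALPHA)1 and HMLALPHA1 were at background, and those of MF(ALPHA)2, STE3 and SAG1 were above it. SAG1 read 9.43 to 9.69 in bmhhdac arrays, near the 9.86 to 9.93 of hdac arrays. It read 8.09 to 8.24 in bmh and 7.77 to 8.12 in wild-type arrays. Change in alpha-cell markers was thus not confined to the hdac strain. The part of mating type in the results for the hdac and bmhhdac strains was not tested.

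ACC1, ELO1, FAS2 and FAA1 rose in the bmh strain, and the same 4 genes rose in the bmhhdac strain, each relative to the wild type. In the hdac strain ELO1 rose and SPT23, a transcription factor gene, fell. The largest rises were those of ELO1 in bmhhdac (3.02-fold) and hdac (2.43-fold) cells and of FAA1 in bmh (2.43-fold) and bmhhdac (2.12-fold) cells. OLE1, the gene of the desaturase, passed the test in none of these comparisons. A gene was called changed at an adjusted p under 0.05 in limma, with Benjamini-Hochberg adjustment over all 5448 genes, and the 3 mutant strains share the same wild-type arrays as their baseline. In bulk RNA, more cells with a transcript and more of it per cell cannot be told apart.

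These counts were read against how many of all genes were called. For bmh minus wild type 4 of the 9 genes were called, all as rises, while 32.0% of all genes were called, 14.8% as rises and 17.2% as falls. The median log2 difference was 0.25 over the 9 genes and −0.01 over all genes. For hdac minus wild type 2 of 9 were called, 1 in each direction, where 71.4% of all genes were called, 29.8% as rises and 41.6% as falls. Here the median log2 difference was 0.00 over the 9 genes and −0.09 over all genes, and the median size of the difference was 0.15 against 0.40. For bmhhdac minus wild type 4 of 9 were called, all as rises, where 75.7% of all genes were called, 30.4% as rises and 45.2% as falls. The medians were 0.20 over the 9 genes and −0.13 over all genes. The hdac and bmhhdac strains thus called fewer of the fatty acid genes than of genes at large, and the bmh strain somewhat more; no test was made of these shares.

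**Figure D1:**
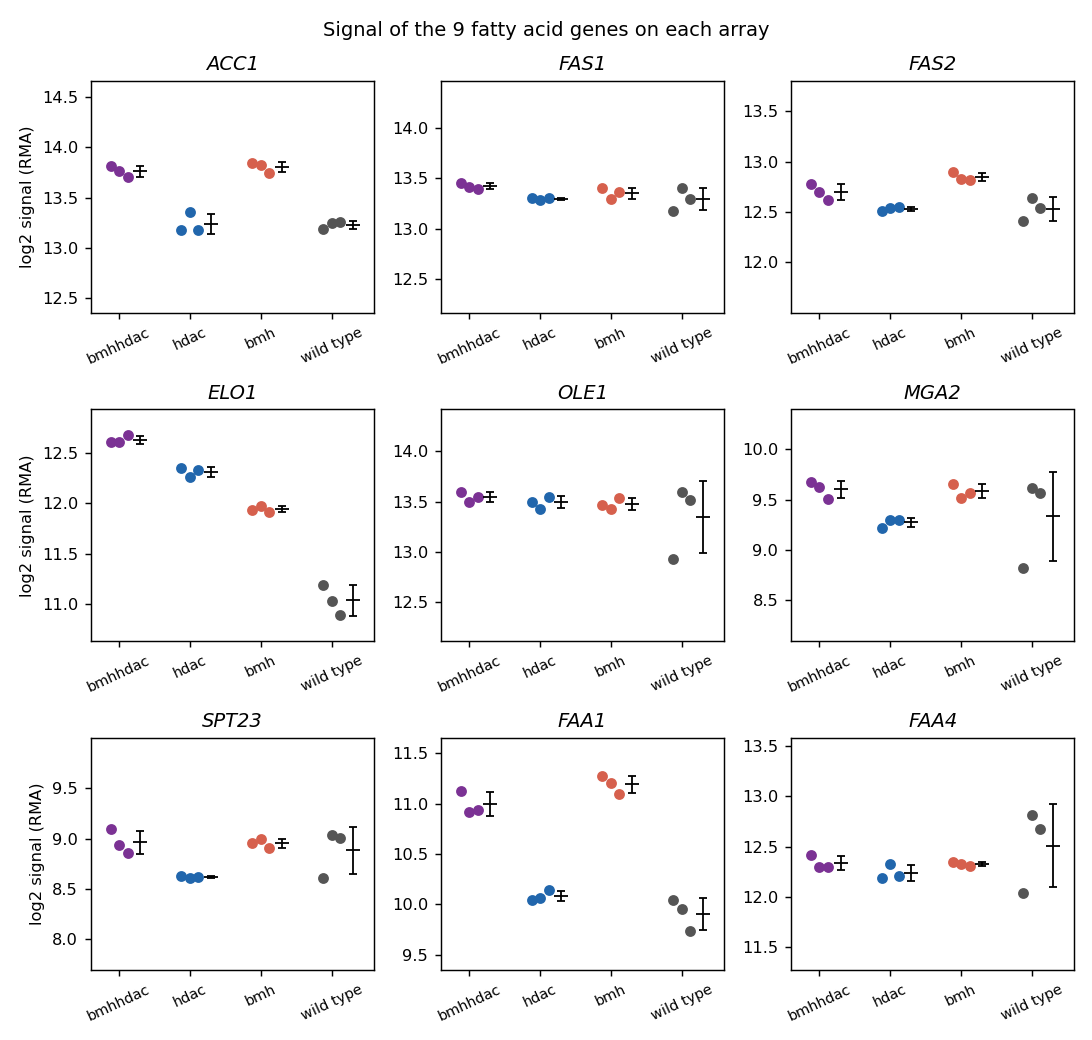
Signal of the 9 fatty acid genes on each of the 12 arrays; the y axis is the deposited log2 signal, with the same span in every panel, points are single arrays (1 to 3 from left to right), and bars are the mean ± SD of 3 arrays. ACC1 and FAA1 lie higher in the bmhhdac and bmh strains than in the hdac and wild-type strains, ELO1 is lowest in the wild type, and wild-type array 1 lies below arrays 2 and 3 for OLE1, MGA2, SPT23 and FAA4.

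ACC1 encodes acetyl-CoA carboxylase, the enzyme of the committed step of synthesis. Its log2 signal was 13.81, 13.76 and 13.71 in bmhhdac arrays, 13.18, 13.35 and 13.18 in hdac arrays and 13.84, 13.82 and 13.74 in bmh arrays, against 13.19, 13.24 and 13.25 in wild-type arrays. All 6 arrays with the 14-3-3 mutations lay above all 6 arrays without them. The means were 13.76 ± 0.053 in bmhhdac, 13.24 ± 0.10 in hdac and 13.80 ± 0.050 in bmh cells, against 13.23 ± 0.036 in the wild type (SD, n = 3 each). ACC1 rose by 0.57 ± 0.062 (log2 difference ± SE) in bmh cells, which is 1.49-fold (adjusted p = 2.74e-05). It rose by 0.53 ± 0.062 in bmhhdac cells, or 1.45-fold (adjusted p = 7.43e-06). In hdac cells the difference was 0.01, with a 95% interval of −0.13 to 0.15 (adjusted p = 0.907). In the order of its levels, bmh and bmhhdac cells did not differ beyond their spread (bmhhdac minus bmh −0.04, interval −0.18 to 0.09), nor did hdac and wild-type cells, and the step between these pairs passed the test. The rises in bmh and bmhhdac cells kept their calls without each of the 12 arrays in turn, with differences of 0.55 to 0.60 and 0.51 to 0.56.

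FAS1 and FAS2 encode the beta and alpha subunits of the fatty acid synthase. FAS2 read 12.78, 12.70 and 12.62 in bmhhdac arrays, 12.51, 12.54 and 12.55 in hdac arrays and 12.90, 12.83 and 12.81 in bmh arrays, against 12.41, 12.64 and 12.54 in wild-type arrays. The bmh arrays lay above all arrays of the other strains, and 1 bmhhdac array lay within the wild-type range. FAS2 rose by 0.32 ± 0.067 in bmh cells (1.25-fold, adjusted p = 0.00343). Its rise in bmhhdac cells was 0.17 ± 0.067 (1.13-fold, adjusted p = 0.0342). That call was lost with the replicate number as a block (adjusted p = 0.0526) and on leaving out wild-type arrays 1 (0.11, adjusted p = 0.105) or 3 (0.18, 0.0574), or bmhhdac arrays 1 (0.13, 0.127) or 2 (0.17, 0.0706). The hdac minus wild type difference was 0.00 (interval −0.14 to 0.15). FAS1, the partner subunit, read 13.45, 13.41 and 13.39 in bmhhdac, 13.30, 13.29 and 13.30 in hdac and 13.40, 13.29 and 13.36 in bmh arrays, against 13.18, 13.41 and 13.30 in wild-type arrays. Its groups overlapped in each comparison with the wild type. FAS1 did not pass the test in bmh (0.06, interval −0.08 to 0.19), hdac (0.00, interval −0.13 to 0.14) or bmhhdac cells (0.12, interval −0.01 to 0.26, adjusted p = 0.0866). Without wild-type array 2 the bmhhdac difference of FAS1 was 0.18 and was called (adjusted p = 0.0205). When wild-type array 1 was left out, the FAS1 differences were 0.07 in bmhhdac (adjusted p = 0.272), −0.05 in hdac (adjusted p = 0.372) and 0.00 in bmh cells (adjusted p = 0.998). Whether FAS1 and FAS2 responded differently was not tested.

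ELO1 encodes the elongase that extends medium-chain fatty acids. It read 12.60, 12.61 and 12.68 in bmhhdac arrays, 12.35, 12.26 and 12.33 in hdac arrays and 11.93, 11.97 and 11.92 in bmh arrays, against 11.19, 11.03 and 10.89 in wild-type arrays. The 4 strains did not overlap. The means were 12.63 ± 0.040 in bmhhdac, 12.31 ± 0.050 in hdac and 11.94 ± 0.029 in bmh cells, against 11.04 ± 0.15 in the wild type (SD, n = 3 each). ELO1 rose by 1.60 ± 0.072 in bmhhdac cells (adjusted p = 1.4e-09), by 1.28 ± 0.072 in hdac cells (adjusted p = 1.55e-08) and by 0.90 ± 0.072 in bmh cells (1.87-fold, adjusted p = 1.67e-06). Every neighbouring pair in this order of levels passed the test. Of the 5448 genes, 401 had a larger difference in either direction in bmhhdac cells, 471 in hdac cells and 184 in bmh cells. ELO1 was the member called in all pairwise comparisons, and leaving out each array in turn ended none of these calls.

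OLE1 encodes the delta-9 desaturase, the enzyme that makes monounsaturated fatty acids in yeast. Its signal was 13.60, 13.49 and 13.55 in bmhhdac arrays, 13.50, 13.43 and 13.55 in hdac arrays and 13.47, 13.42 and 13.54 in bmh arrays, against 12.93, 13.59 and 13.51 in wild-type arrays. The 9 mutant arrays spanned the narrow range from 13.42 to 13.60, which held wild-type arrays 2 and 3 as well, and wild-type array 1 lay below all of them. The differences from the wild type were 0.20 in bmhhdac cells (interval −0.09 to 0.49), 0.15 in hdac cells (−0.15 to 0.44) and 0.13 in bmh cells (−0.16 to 0.42), with adjusted p of 0.192, 0.344 and 0.498. Without wild-type array 1 they were −0.01, −0.06 and −0.08, with adjusted p of 0.892, 0.356 and 0.325. Without wild-type array 2 the OLE1 difference in bmhhdac cells was 0.32 and was called (adjusted p = 0.0432). The differences among the mutants, which do not rest on the wild-type means, lay between −0.01 and 0.07.

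MGA2 and SPT23 encode the membrane-anchored transcription factors that activate OLE1. MGA2 read 9.67, 9.63 and 9.50 in bmhhdac arrays, 9.22, 9.30 and 9.30 in hdac arrays and 9.66, 9.52 and 9.57 in bmh arrays, against 8.82, 9.61 and 9.57 in wild-type arrays. The hdac arrays lay below all bmhhdac and bmh arrays, and wild-type array 1 was again the lowest. MGA2 passed the test in none of the 3 comparisons with the wild type: the differences were 0.27 in bmhhdac cells (interval −0.08 to 0.62), −0.06 in hdac cells (−0.41 to 0.29) and 0.25 in bmh cells (−0.10 to 0.60). Without wild-type array 1 the difference in hdac cells was −0.32 and was called a fall (adjusted p = 0.000614), and those in bmhhdac and bmh cells were 0.01 and −0.01. Without wild-type array 2 the MGA2 difference in bmhhdac cells was 0.41 and was called a rise (adjusted p = 0.0397).

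SPT23, the paralogue of MGA2, read 9.09, 8.94 and 8.86 in bmhhdac arrays, 8.63, 8.61 and 8.62 in hdac arrays and 8.96, 8.99 and 8.90 in bmh arrays, against 8.61, 9.03 and 9.003 in wild-type arrays. The hdac arrays lay below every bmhhdac and bmh array and below wild-type arrays 2 and 3, at about the level of wild-type array 1. SPT23 fell by 0.26 on the log2 scale in hdac cells (log2 difference −0.26 ± 0.10, adjusted p = 0.0325). The call was lost in a fit of only these strains (adjusted p = 0.0844) and on leaving out wild-type arrays 2 (−0.19, 0.131) or 3 (−0.20, 0.12), or hdac arrays 1 (−0.27, 0.0643), 2 (−0.26, 0.0736) or 3 (−0.26, 0.0691). It was larger, −0.40, when wild-type array 1 was left out (adjusted p = 0.000108). In bmhhdac and bmh cells the SPT23 differences were 0.08 (interval −0.14 to 0.30) and 0.07 (interval −0.15 to 0.29), and they had the opposite sign, −0.06 and −0.07, when wild-type array 1 was left out (adjusted p = 0.449 and 0.453).

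FAA1 and FAA4 encode the main long-chain acyl-CoA synthetases, which activate imported fatty acids. FAA1 read 11.13, 10.92 and 10.94 in bmhhdac arrays, 10.04, 10.07 and 10.14 in hdac arrays and 11.27, 11.20 and 11.10 in bmh arrays, against 10.04, 9.95 and 9.73 in wild-type arrays. As for ACC1, all arrays with the 14-3-3 mutations lay above all arrays without them. FAA1 rose by 1.28 ± 0.087 in bmh cells (adjusted p = 3.87e-07), where 94 of the 5448 genes had a larger difference. It rose by 1.08 ± 0.087 in bmhhdac cells (adjusted p = 2.48e-07). In hdac cells the difference was 0.17 (interval −0.02 to 0.36, adjusted p = 0.093), although the groups did not overlap, and without wild-type array 1 it was 0.24 and was called a rise (adjusted p = 0.0197). In the order bmh, bmhhdac, hdac and wild type, the step between bmhhdac and hdac passed the test and the other steps did not.

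FAA4 read 12.42, 12.30 and 12.30 in bmhhdac arrays, 12.18, 12.33 and 12.21 in hdac arrays and 12.35, 12.33 and 12.30 in bmh arrays, against 12.04, 12.82 and 12.67 in wild-type arrays. The 9 mutant arrays lay between 12.18 and 12.42, wild-type array 1 below them all and wild-type arrays 2 and 3 above them all. With all arrays FAA4 passed no test: the differences were −0.17 in bmhhdac cells (interval −0.50 to 0.16), −0.27 in hdac cells (−0.60 to 0.06) and −0.18 in bmh cells (−0.51 to 0.14). Without wild-type array 1 FAA4 was called a fall in all 3 mutants, with differences of −0.41 in bmhhdac (adjusted p = 7.8e-05), −0.51 in hdac (adjusted p = 1.23e-05) and −0.42 in bmh cells (adjusted p = 0.00026). Leaving out wild-type array 2 instead gave differences of −0.02 in bmhhdac (adjusted p = 0.91), −0.12 in hdac (adjusted p = 0.472) and −0.03 in bmh cells (adjusted p = 0.892). A fit with array weights gave −0.44, −0.53 and −0.43, and these were called too.

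**Figure D2:**
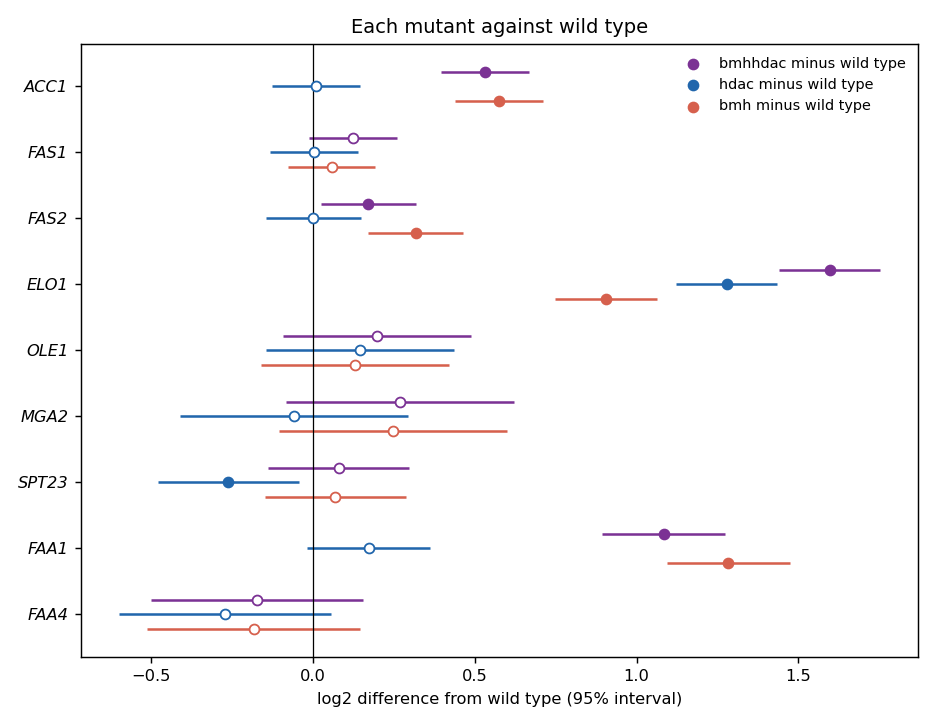
Log2 difference of each gene from the wild type in the bmhhdac, hdac and bmh strains; the x axis is the log2 difference, bars are 95% intervals, and filled points were called at adjusted p under 0.05. ACC1 and FAA1 lie to the right for bmhhdac and bmh and near 0 for hdac, ELO1 lies to the right for all 3, and the wide intervals are those of OLE1, MGA2, SPT23 and FAA4.

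The spread of each strain was uneven among the genes. Relative to the mean of the other 2 arrays of the strain, wild-type array 1 was off by −0.62 for OLE1, −0.77 for MGA2, −0.71 for FAA4 and −0.40 for SPT23. For ACC1, FAS1 and FAS2 it was off by −0.06, −0.17 and −0.18, and in the other direction by 0.23 for ELO1 and 0.20 for FAA1. OLE1, MGA2 and FAA4 were off by 0.5 or more on that array, and no member was off by so much on the other 11 arrays. The 4 genes called in both 14-3-3 mutant strains include none of the 4 genes with the largest such offsets. Such an offset also widens the spread used in the test and makes a call harder, so this is no support for those calls. Over all genes, the median size of the offset was 0.19 on this array, against 0.11 and 0.12 on wild-type arrays 2 and 3 and 0.051 to 0.080 on the mutant arrays. What set this culture or array apart was not tested.

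**Figure D3:**
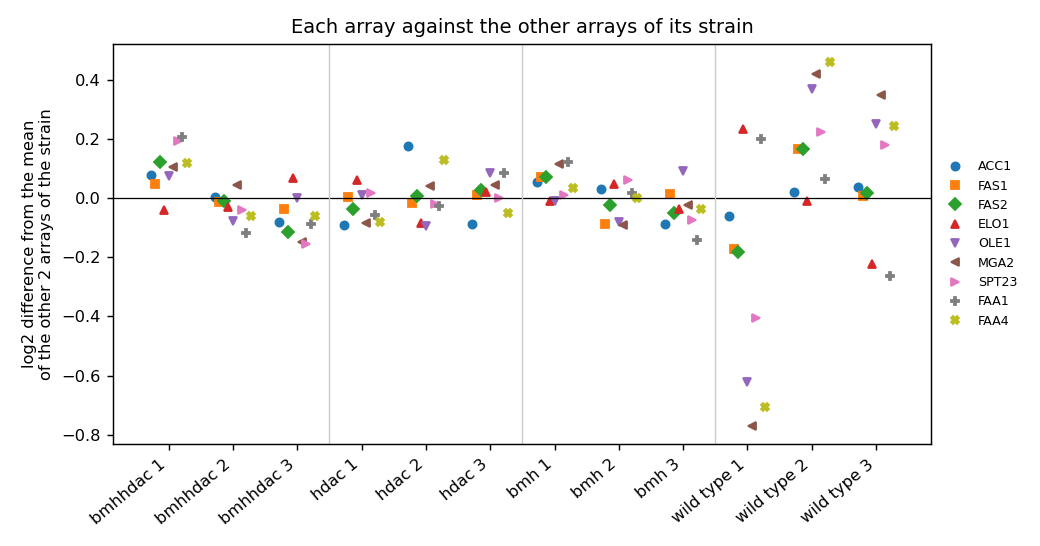
Log2 difference of each array from the mean of the other 2 arrays of its strain, for the 9 fatty acid genes; the x axis lists the 12 arrays by strain, and each symbol is a gene. On wild-type array 1 the points of MGA2, FAA4, OLE1 and SPT23 lie at −0.77, −0.71, −0.62 and −0.40, below all points of the mutant arrays.

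The design also asks what goes with the 14-3-3 mutations in cells that lack HDA1 and RPD3. The hdac strain in this comparison also carried the alpha-cell transcripts given above. For bmhhdac minus hdac 4 of 9 genes rose, where 36.4% of all genes were called, 17.5% as rises and 18.9% as falls. The median log2 difference was 0.32 over the 9 genes and −0.02 over all genes. FAA1 rose by 0.91 ± 0.087 (adjusted p = 6.58e-06) and ACC1 by 0.52 ± 0.062 (adjusted p = 4.16e-05). ELO1 rose by 0.32 ± 0.072 (adjusted p = 0.00459). SPT23 rose by 0.34 ± 0.10 (adjusted p = 0.0185), a call that was lost without hdac array 2 (0.34, 0.0525), hdac array 3 (0.34, 0.0502) or bmhhdac array 1 (0.28, 0.0771). FAS1, FAS2 and MGA2 were higher on every bmhhdac array than on every hdac array but did not pass the test: the differences were 0.12 for FAS1 (adjusted p = 0.147), 0.17 for FAS2 (adjusted p = 0.0658) and 0.33 for MGA2 (adjusted p = 0.133). Without wild-type array 1, which enters the pooled spread, MGA2 (adjusted p = 0.000494) and FAS2 (adjusted p = 0.0185) were called, and so was FAS2 without wild-type array 2 (adjusted p = 0.0476). The OLE1 and FAA4 differences were 0.05 and 0.10.

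Loss of the deacetylases in cells that already carry the 14-3-3 mutations moved few of these genes. For bmhhdac minus bmh 1 of 9 was called, a rise, where 75.0% of all genes were called, 30.1% as rises and 45.0% as falls. That gene was ELO1, which rose by 0.69 ± 0.072 (1.62-fold, adjusted p = 3.01e-06). The median log2 difference was 0.01 over the 9 genes and −0.12 over all genes. FAA1 was lower by 0.20, with an adjusted p of 0.056 and an interval of −0.39 to −0.01. With the replicate number as a block, a pairing that the labels do not state, the FAA1 difference of −0.20 passed the test (adjusted p = 0.044), so that 2 of 9 were called. FAA1 was also called on leaving out wild-type arrays 1 (adjusted p = 0.0273) or 3 (0.0275), bmh array 3 (−0.25, 0.0412) or bmhhdac array 1 (−0.27, 0.0213). FAS2 was lower on every bmhhdac array than on every bmh array, with a difference of −0.15 and an adjusted p of 0.0654. The FAS2 call was gained on leaving out wild-type arrays 1 (adjusted p = 0.0232) or 2 (0.0472), or bmhhdac array 1 (−0.19, 0.0378). For the other genes the differences lay between −0.04 and 0.07.

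**Figure D4:**
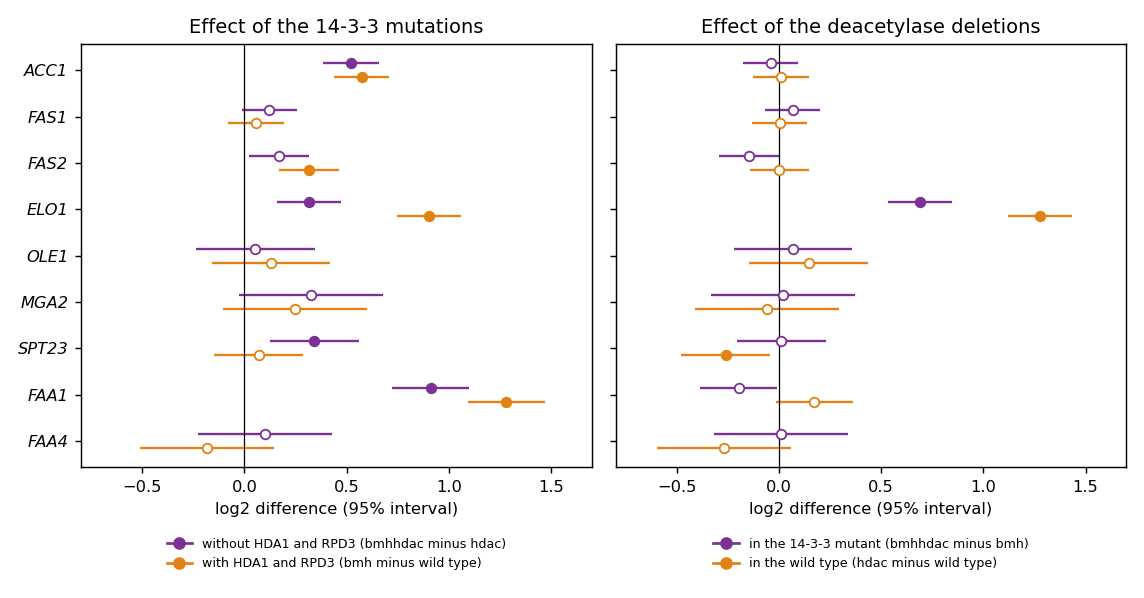
Left, log2 difference that goes with the 14-3-3 mutations without HDA1 and RPD3 (bmhhdac minus hdac) and with them (bmh minus wild type). Right, log2 difference that goes with the deacetylase deletions in the 14-3-3 mutant (bmhhdac minus bmh) and in the wild type (hdac minus wild type). Bars are 95% intervals and filled points were called at adjusted p under 0.05. For ELO1 the intervals of the 2 backgrounds do not overlap in either panel, while for ACC1 the points nearly coincide.

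The interaction asks whether the difference that goes with the 14-3-3 mutations is the same in cells without and with the deacetylases. It uses the hdac strain, whose alpha-cell transcripts cannot be told apart from its genotype. It was called for 2 of the 9 genes, both negative, where 23.7% of all genes were called, 12.3% as positive and 11.3% as negative. ELO1 had an interaction of −0.59 ± 0.10 (adjusted p = 0.00136): the difference that went with the 14-3-3 mutations was 0.32 without the deacetylases and 0.90 with them. This call was kept without each array in turn, with values from −0.66 to −0.51. FAA1 had an interaction of −0.37 ± 0.12 (adjusted p = 0.0471), from a difference of 0.91 without the deacetylases and 1.28 with them. The FAA1 call was kept in 3 of 12 repeats that left out 1 array each. It was lost without wild-type array 2 (−0.39, 0.0576) or 3 (−0.28, 0.0833), bmh array 1 (−0.33, 0.11) or 2 (−0.36, 0.0927), hdac array 1 (−0.39, 0.0686), 2 (−0.38, 0.0802) or 3 (−0.34, 0.105), and bmhhdac array 2 (−0.33, 0.111) or 3 (−0.34, 0.107). For ACC1 the interaction was −0.05, with an interval of −0.24 to 0.14 (adjusted p = 0.726). Over the 9 genes the median was −0.05 and over all genes −0.02. Leaving out wild-type array 1, the interactions of FAA4 (0.52, adjusted p = 0.000611), SPT23 (0.41, adjusted p = 0.00327) and MGA2 (0.34, adjusted p = 0.00911) were called as well, so that 5 of 9 were.

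Set directly against each other, the bmh and hdac strains differed in 5 of 9 genes, 4 higher and 1 lower in bmh cells, where 72.1% of all genes were called, 41.6% as higher and 30.5% as lower. The median log2 difference for bmh minus hdac was 0.31 over the 9 genes and 0.09 over all genes. FAA1 was higher in bmh cells by 1.11 ± 0.087 (adjusted p = 2.88e-07) and ACC1 by 0.57 ± 0.062 (adjusted p = 5.63e-06). SPT23 was higher by 0.33 ± 0.10 (adjusted p = 0.00998) and FAS2 by 0.32 ± 0.067 (adjusted p = 0.00105). ELO1 was lower in bmh cells, with a difference of −0.37 ± 0.072 (adjusted p = 0.000535). MGA2 was higher on every bmh array than on every hdac array, with a difference of 0.31 that did not pass the test (adjusted p = 0.105) unless wild-type array 1 was left out (adjusted p = 0.000304).

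Across the 12 arrays the members fell into different patterns, given here as descriptions over arrays that share 4 strain means. ACC1 and FAA1 were most alike, with a Pearson r of 0.96. FAS2 correlated with ACC1 at 0.88 and with FAA1 at 0.87, and less with its partner subunit gene FAS1, at 0.66. FAS1 was closest to MGA2, at 0.87, and MGA2 correlated with SPT23 at 0.85 and with OLE1 at 0.81. These last 3 genes share the low wild-type array 1. FAA1 and FAA4, the synthetase pair, correlated at −0.20, and ELO1 and FAA4 at −0.48.

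Among all genes, the patterns most like that of ACC1 were those of QDR3, HIS3 and URA1 (Pearson r of 0.97 each). Those most like FAA1 were YRO2, PYC1 and IZH3, each at 0.98. PYC1 encodes a pyruvate carboxylase. FAS2 was matched best by GAS2 (0.95), RET1 (0.94) and RAD16 (0.94), and FAS1 by CDS1 (0.89), ICE2 (0.88) and MGA2. CDS1 encodes the enzyme that makes CDP-diacylglycerol, a phospholipid precursor. OLE1 was closest to TRZ1 (0.96), KNH1 (0.94) and IZH4 (0.94), and FAA4 to YDR444W (0.93), DBP6 (0.91) and IRE1 (0.91). Every OLE1 array but wild-type array 1 (12.93) lay between 13.42 and 13.60. For FAA4 the wild-type arrays ran from 12.04 to 12.82 and the mutant arrays from 12.18 to 12.42. The r values of OLE1 and FAA4 therefore rest mostly on the wild-type arrays. A pattern alike at an r above 0.9 was found in 40 genes for FAA1, 35 for ACC1, 12 for FAS2, 6 for OLE1 and 3 for FAA4.

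Other genes of fatty acid metabolism were read as 9 lists with 62 measured genes, and the counts here are given for bmhhdac, hdac and bmh cells in turn, each minus wild type, against the shares of all genes called above. Medians of a list are log2 differences, to be read against −0.13, −0.09 and −0.01 over all genes in the same comparisons. Of the 5 partners of elongation, 2 fell in bmhhdac, 1 rose and 3 fell in hdac, and 2 fell in bmh cells, with medians of 0.05, −0.17 and −0.10. ELO2, an elongase of longer chains, rose in hdac cells (0.55 ± 0.058) and not in bmhhdac cells (0.05 ± 0.058). Its fall in bmh cells (−0.19 ± 0.058, adjusted p = 0.0256) was lost without wild-type array 2 (−0.17, 0.0752) or any of bmh arrays 1, 2 and 3 (−0.19 each, adjusted p = 0.0671, 0.07 and 0.0629). ELO3, which makes the longest chains, fell by 0.14 in bmhhdac cells and by 0.17 in hdac cells. The ELO3 call in bmhhdac cells was lost without wild-type array 2 (−0.13, 0.0524) or bmhhdac array 1 (−0.12, 0.0599). IFA38, the ketoreductase of the cycle, fell by 0.48 in bmhhdac and 0.26 in hdac cells.

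Genes of fatty acid import and acyl-CoA handling were 4 up and 2 down of 6 in bmhhdac cells, 2 up and 2 down in hdac cells, and 4 down in bmh cells. The medians were 0.31, −0.03 and −0.35. PXA1 and PXA2 encode the subunits of the peroxisomal importer of long-chain acyl groups. PXA1 read 8.35 to 8.52 in bmhhdac, 7.19 to 7.46 in hdac and 6.15 to 6.32 in bmh arrays, against 7.26 to 7.45 in wild-type arrays. It rose by 1.07 ± 0.085 in bmhhdac cells and fell by 1.14 in bmh cells (log2 difference −1.14 ± 0.085), with an interaction of 2.29 ± 0.12 (adjusted p = 8.95e-08), whereas the interaction of FAA1 was negative. PXA2 rose by 1.80 ± 0.091 in bmhhdac and 1.22 ± 0.091 in hdac cells and fell by 0.44 in bmh cells. FAA3, a further long-chain acyl-CoA synthetase, fell by 0.92 in bmhhdac and 1.05 in hdac cells. Its fall by 0.27 in bmh cells was lost without wild-type array 2 (−0.21, 0.0806) or bmh array 3 (−0.19, 0.0891).

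Of 6 genes that supply cofactors, 4 fell in bmhhdac cells, 3 fell in hdac cells, and 1 rose and 1 fell in bmh cells, with medians of −0.49, −0.23 and −0.12. CYB5, which encodes cytochrome b5, an electron carrier for lipid desaturation and hydroxylation, read 10.24 to 10.43 in bmhhdac and 10.54 to 10.67 in hdac arrays, against 11.71 to 12.06 in wild-type arrays. It fell by 1.59 in bmhhdac cells (log2 difference −1.59 ± 0.091) and by 1.30 in hdac cells. With all arrays OLE1 passed no test in these comparisons, and a link between CYB5 and OLE1 was not tested. In bmh cells the CYB5 difference was −0.09, and −0.20 without wild-type array 1, which was called (adjusted p = 0.0289). BPL1, the ligase that attaches biotin to acetyl-CoA carboxylase, fell by 0.54 in bmhhdac and by 0.35 in bmh cells, the strains in which ACC1 rose. ZWF1, which makes NADPH in the pentose phosphate pathway, fell by 0.62 in bmhhdac cells (log2 difference −0.62, and −0.40 when wild-type array 1 was left out, adjusted p = 4.44e-05).

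The mitochondrion has its own fatty acid synthesis, whose 8 genes were 5 up and 3 down in bmhhdac, 4 up and 1 down in hdac, and 1 up and 4 down in bmh cells. The medians were 0.39, 0.32 and −0.29. ETR1, the mitochondrial enoyl reductase, rose by 1.62 ± 0.12 in bmhhdac and 0.64 ± 0.12 in hdac cells and did not pass the test in bmh cells (−0.25, and −0.08 when wild-type array 1 was left out). CEM1, the condensing enzyme, rose by 1.02 in bmhhdac, 0.73 in hdac and 1.22 in bmh cells. HTD2, the dehydratase, fell by 0.54 in bmhhdac and by 0.44 in bmh cells. The 4 falls in bmh cells became 2 without bmh array 1.

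Cutting and release of Spt23 and Mga2 from the membrane depend on ubiquitin and the Cdc48 machinery. Of 7 such genes 3 rose and 1 fell in bmhhdac, 2 rose and 1 fell in hdac, and 2 rose in bmh cells, with medians of 0.10, −0.04 and 0.04. UBI4, a polyubiquitin gene also known for its stress response, rose by 1.86 ± 0.088 in bmhhdac, 1.89 ± 0.088 in hdac and 0.51 ± 0.088 in bmh cells. CDC48 rose by 0.27 in bmhhdac and 0.22 in hdac cells. UFD1, a Cdc48 partner, rose by 0.37 in bmh cells and fell by 0.35 in hdac cells. Its fall by 0.23 in bmhhdac cells was lost without wild-type array 2 or 3 (−0.22 each, adjusted p = 0.0538 and 0.0534) or bmhhdac array 1 (−0.15, 0.104). UBX2, the membrane adaptor of Cdc48, was higher in bmhhdac than in bmh cells (0.25, adjusted p = 0.00546) and than in hdac cells (0.26, adjusted p = 0.0114, and 0.055 without hdac array 3), with an interaction of 0.41 (adjusted p = 0.00967). It passed the test in none of the comparisons with the wild type with all arrays, and its hdac minus wild type difference of −0.16 was called without wild-type array 2 (−0.19, 0.0475) or hdac array 1 (−0.20, 0.038).

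**Figure D5:**
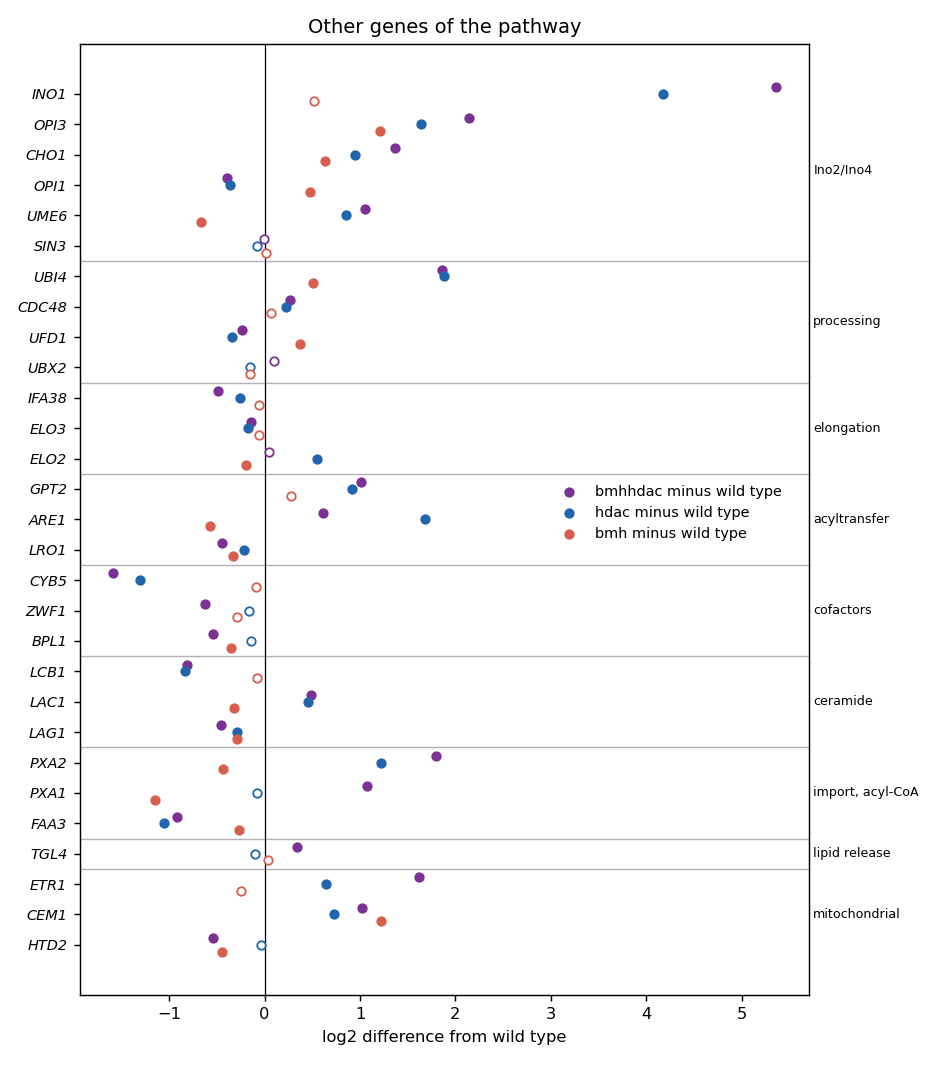
Log2 difference from the wild type of the named other genes of fatty acid metabolism in the bmhhdac, hdac and bmh strains, grouped by list; filled points were called at adjusted p under 0.05. INO1 lies farthest to the right, at 5.36 in bmhhdac and 4.18 in hdac cells, and CYB5 farthest to the left, at −1.59 in bmhhdac cells.

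The Ino2/Ino4 circuit, which in yeast also acts on ACC1, FAS1 and FAS2, had 5 of 10 genes up and 2 down in bmhhdac cells, 5 up and 2 down in hdac cells, and 5 up and 1 down in bmh cells. The medians were 0.39, 0.33 and 0.40. The list holds activators, repressors and targets together, so these counts and medians give no direction for the circuit as a whole. INO1, the inositol-3-phosphate synthase gene and the best known target of this circuit, read 12.33, 12.23 and 12.17 in bmhhdac arrays, 11.11, 11.05 and 11.01 in hdac arrays and 7.45, 7.47 and 7.28 in bmh arrays, against 6.21, 7.38 and 7.05 in wild-type arrays. It rose by 5.36 ± 0.21 in bmhhdac cells (41.1-fold, adjusted p = 4.32e-10) and by 4.18 ± 0.21 in hdac cells (18.1-fold, adjusted p = 6.25e-09). In the same hdac cells ACC1, FAS1 and FAS2 passed no test, with differences from the wild type of 0.01, 0.00 and 0.00, and of −0.01, −0.05 and −0.06 when wild-type array 1 was left out. In bmh cells, where ACC1 and FAS2 rose, the INO1 difference was 0.52 and did not pass the test (adjusted p = 0.084), except without wild-type array 2 (0.77, adjusted p = 0.00871). It was 0.19 when wild-type array 1 was left out (adjusted p = 0.124). What part the circuit had in the levels of ACC1, FAS1 and FAS2 was not tested.

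OPI3 and CHO1, phospholipid synthesis genes of the same list, rose in all 3 mutants. OPI3, a phospholipid methyltransferase, rose by 2.14 in bmhhdac, 1.64 in hdac and 1.21 in bmh cells. CHO1, the phosphatidylserine synthase, rose by 1.37 in bmhhdac, 0.95 in hdac and 0.64 in bmh cells. UME6, a DNA-binding repressor that recruits Rpd3, rose by 1.05 in bmhhdac and 0.85 in hdac cells and fell by 0.67 in bmh cells. SIN3, a subunit of Rpd3 complexes, passed no test in these 3 comparisons, with differences between −0.08 and 0.01.

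OPI1, the repressor of the circuit, was higher in bmh cells (0.48 ± 0.15, adjusted p = 0.0259) and lower in bmhhdac (−0.39 ± 0.15, adjusted p = 0.0277) and hdac cells (−0.36 ± 0.15, adjusted p = 0.0431). When wild-type array 1 was left out, the OPI1 differences were 0.27 in bmh, −0.61 in bmhhdac and −0.57 in hdac cells, all called (adjusted p = 0.0201, 1.69e-05 and 3.2e-05). The OPI1 call in bmh cells was lost without any of bmh arrays 1, 2 and 3 (0.48, 0.47 and 0.49, adjusted p = 0.0646, 0.0732 and 0.0579). That in bmhhdac cells was lost without wild-type array 2 (−0.29, 0.112) or 3 (−0.28, 0.117) or bmhhdac array 1 (−0.39, 0.0627) or 3 (−0.36, 0.0791). That in hdac cells was kept without hdac array 2 or wild-type array 1 and lost without each of the other 10 arrays, with adjusted p up to 0.171. The 5 rises in bmh cells became 3 without bmh array 1 or 2.

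Downstream, 10 genes of acyl transfer and glycerolipid assembly were 3 up and 4 down in bmhhdac, 4 up and 2 down in hdac, and 6 down in bmh cells, with medians of 0.09, 0.07 and −0.27. GPT2, a glycerol-3-phosphate acyltransferase, rose by 1.02 in bmhhdac and 0.91 in hdac cells. In bmh cells the GPT2 difference was 0.28, and 0.46 without wild-type array 1, which was called (adjusted p = 0.000338). ARE1, which esterifies sterols with fatty acids, rose by 0.61 in bmhhdac and 1.68 in hdac cells and fell by 0.57 in bmh cells. LRO1, which makes triacylglycerol from phospholipid, fell by 0.45, 0.21 and 0.33 in bmhhdac, hdac and bmh cells.

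Of 6 genes of fatty acid hydroxylation and ceramide synthesis 2 rose and 3 fell in bmhhdac, 3 rose and 3 fell in hdac, and 2 fell in bmh cells, with medians of −0.10, 0.02 and −0.11. LCB1, a subunit of serine palmitoyltransferase, fell by 0.81 in bmhhdac and 0.84 in hdac cells. Of the ceramide synthase genes, LAC1 rose by 0.49 in bmhhdac and 0.46 in hdac cells and fell by 0.32 in bmh cells. LAG1 fell by 0.46 in bmhhdac, 0.29 in hdac and 0.29 in bmh cells. Of 4 genes of lipid release 1 rose in bmhhdac, 2 rose in hdac, and 1 rose and 2 fell in bmh cells, with medians of 0.08, 0.12 and −0.14. TGL4, a triacylglycerol lipase, rose by 0.34 in bmhhdac cells.

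The list counts with the fewest genes turned on single arrays. Without wild-type array 1 the counts of genes that fell in bmh cells were 2 of the cofactor list and 2 of the Ino2/Ino4 circuit, the rises in hdac cells were 2 of the elongation list, and 1 gene each of the elongation and cofactor lists rose in bmhhdac cells and of the import and acyl transfer lists in bmh cells. Without wild-type array 2 the falls of the elongation list became 1 in bmhhdac and in bmh cells, 2 genes of lipid release rose in bmhhdac cells and 2 of the processing list fell in hdac cells, as they did without hdac array 1. Without wild-type array 3 the cofactor list had 3 falls in bmh cells. The 2 falls of the import list and the 2 of acyl transfer in hdac cells became 1 each without wild-type array 2 or 3, as did the import falls without hdac array 1 or 3 and the acyl transfer falls without hdac array 2, and the 2 falls of the import list in bmhhdac cells became 1 without bmhhdac array 3. The single rise of a cofactor gene in bmh cells was that of ACS2, and the count ranged from 0 to 2 genes over the repeats that left out an array. The single rise of a lipid release gene in bmh cells, TGL3, was lost without bmh array 2 or 3. ACS2 and TGL3 are named here after their values were seen.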

How the data were processed

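RNA from 12 cultures (250 ng per array) was hybridised to Affymetrix arrays. The authors deposited log2 signal intensities from RMA (affy package), per the submitters' processing notes. Neither tool versions nor the array's genome build are given in what was used here, and base 2 is an inference from RMA and from the range of 3.385 to 14.9. The values were used as deposited.

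Arrays were grouped by genotype label. The source names exchange the strain names of the hdac and bmhhdac arrays, so each genotype was checked on the deleted genes. A single gene symbol was given for 5497 probe sets, several for 0 and none for 218, and 12 symbols were brought up to date. Where a gene had more than 1 probe set, that with the highest mean was used and the others (49) were dropped. Background was taken as the highest signal of BMH2, HDA1 or RPD3 in strains lacking them.

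limma 3.58.1 in R 4.3.3 fitted 1 mean per strain to all 12 arrays, with default eBayes (residual df 8, prior df 3.82) and Benjamini-Hochberg adjustment across 5448 genes. The p-values rest on the spread between the 3 cultures of a strain, pooled over all 4 strains. Wild-type array 1 therefore enters the p-values of comparisons between mutants too. The fit was tested on simulated data. The members and gene lists were chosen with earlier results of these data known. Named are all 9 members, up to 3 called genes of each of the 9 pathway lists with the largest bmhhdac minus wild type difference, INO1, ELO2, ELO3, CYB5, UBX2, OPI1, UME6 and SIN3, and, for 6 members, the 3 genes most alike by Pearson r. Promoter sequences were not used here. Same-numbered bmhhdac and bmh arrays deviated together weakly (correlations of 0.100 to 0.135, differently numbered ones −0.106 to −0.031). Deviations were taken from the mean of each strain, so positive values for same numbers make the others negative on average. The block fit used the replicate number as a block over all 4 strains. Same-numbered bmhhdac and wild-type arrays, for example, correlated at −0.176 to −0.039. Differently numbered arrays of other strain pairs reached 0.142 (hdac 2 with wild type 3) and 0.192 (bmhhdac 1 with wild type 3). Correlations of this size therefore do not settle whether the numbers mark pairs. That pairing of bmhhdac and bmh arrays rests on the values, as the labels do not state it. No other strain pair had every same-numbered correlation above 0.1. Alternatives were quantile normalization, median centring, a filter on dim genes, eBayes with a trend or robust, fits limited to the strains compared, weights per array, the replicate number as a block, every probe set kept, shared probe sets removed, an adjusted p under 0.01, a change of at least 0.5, and leaving out each array.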

Additional observations from a re-analysis of the deposited data

Results flagged for a closer look

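For ELO1 the difference that went with the 14-3-3 mutations was not the same without and with the deacetylases, by limma's interaction test. The hdac strain enters this test, and its alpha-cell transcripts cannot be told apart from its genotype. The interaction was −0.59 on the log2 scale (adjusted p = 0.00136), with differences of 0.32 for bmhhdac minus hdac and 0.90 for bmh minus wild type. For FAA1 the same test gave −0.37 (adjusted p = 0.0471), with differences of 0.91 and 1.28, and this call was kept in 3 of the 12 repeats that left out an array. Of all genes, 23.7% were called in this test.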

How the results depend on the processing

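No direction of a called value turned under any alternative. Of 1503 values of the 9 genes under the alternatives, 1415 kept their side of the threshold, 40 lost a call and 48 gained one. Of 4822 values of the other named genes, 4621 kept it, 144 lost a call and 57 gained one. The number of the 9 genes called, as reported, was 4 for bmh minus wild type, 2 for hdac minus wild type, 4 for bmhhdac minus wild type, 1 for bmhhdac minus bmh, 4 for bmhhdac minus hdac, 5 for bmh minus hdac and 2 for the interaction. For bmhhdac minus bmh it was 2 with quantile normalization and 2 with the replicate block, and 3 with a trend, 3 with only the groups compared and 3 with array weights. For hdac minus wild type it was 1 with only the groups compared, 1 at adjusted p under 0.01, 1 for changes of at least 0.5 and 5 with array weights. For bmhhdac minus hdac it was 7 with array weights and 2 for changes of at least 0.5, and for bmh minus hdac 2 for changes of at least 0.5. For the interaction it was 1 with quantile normalization, 1 at adjusted p under 0.01, 1 for changes of at least 0.5 and 5 with array weights. Leaving out each array in turn gave 4 to 5 for bmh minus wild type, 1 to 5 for hdac minus wild type, 3 to 7 for bmhhdac minus wild type, 1 to 3 for bmhhdac minus bmh, 3 to 6 for bmhhdac minus hdac, 5 to 6 for bmh minus hdac and 1 to 5 for the interaction. The highest count was reached without wild-type array 1 in each comparison except bmhhdac minus wild type, where it was 7 without wild-type array 2; for bmhhdac minus bmh, leaving out bmhhdac array 1 gave 3 as well. The replicate block changed no call of the 9 genes other than FAA1 in bmhhdac minus bmh and FAS2 in bmhhdac minus wild type. The cause of these changes was not tested.

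Counts over all 5448 genes moved by over 1.5 times in some settings. For bmh minus wild type, 1742 genes were called as reported, 1093 with only the groups compared, 1076 at adjusted p under 0.01 and 543 for changes of at least 0.5. Changes of at least 0.5 left 2202 of 3892 genes for hdac minus wild type, 2534 of 4122 for bmhhdac minus wild type, 2356 of 4088 for bmhhdac minus bmh and 2222 of 3927 for bmh minus hdac. For bmhhdac minus hdac 1982 became 3213 with array weights, 1279 at adjusted p under 0.01 and 650 for changes of at least 0.5. For the interaction 1289 became 2233 with array weights, 738 at adjusted p under 0.01, 735 for changes of at least 0.5 and 1962 without wild-type array 1. The limits are 3 cultures per strain, 1 strain per genotype, and a wild type whose array 1 stood apart for MGA2, FAA4, OLE1 and SPT23.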
